A study of Rattus norvegicus with 4 samples.

Results

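The genes described are 8 of the 17768 in the deposited table: Eln, Fbn1, Fbln1, Fbln2, Fbln5, Lox, Loxl1 and Loxl2, chosen by symbol from a list of elastic fibre and crosslinking genes, and all 8 had a row. They were measured by RNA sequencing in NRK-52E, an established epithelial line from rat kidney that the labels call proximal tubular. There were 2 libraries titled lv_nc and 2 titled lv_Mettl3. The labels describe a stable line made with a lentivirus (pLVX-IRES-Puro) carrying mouse Mettl3 cDNA, selected in 0.5 mg/ml and kept in 0.25 mg/ml puromycin with 10% serum. They give the same protocol and the treatment value untreated for every library, and do not spell out nc. Nor do they say whether replicates are separate cultures. A p-value here therefore reflects scatter between libraries, 2 per group and partly shared over genes by the tests, which could be technical alone. Mettl3 encodes the catalytic subunit of the RNA m6A methyltransferase.

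An elastic fibre is a core of crosslinked elastin laid on a scaffold of fibrillin microfibrils. Fibulins are secreted proteins that bring tropoelastin, fibrillin and the crosslinking enzymes together. Lysyl oxidase and its relatives are copper enzymes that oxidise lysines in elastin and collagen, which then join into crosslinks. In the kidney these proteins are made mostly by interstitial and vascular cells, and several are known to increase in fibrosis.

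Reads assigned to genes numbered 15068898 to 16622255 per library. The targeted gene did not separate the groups: Mettl3 had normalized read counts of 719 and 767 in lv_nc and 757 and 700 in lv_Mettl3, so the libraries are called by their labels, and whether reads of the mouse cDNA were counted was not tested. Across the 10051 genes averaging 100 or more, log2 differences had an SD of 0.41 for the lv_nc pair and 0.29 for the lv_Mettl3 pair, so lv_nc replicate 1 was nearer to both lv_Mettl3 libraries (SD 0.32 and 0.36) than to lv_nc replicate 2, which was farther from them (SD 0.52 and 0.47). On this measure lv_nc replicate 1 therefore did not pair by label, while each other library was nearest to the one sharing its label. Of 16 epithelial symbols 12 had a row, and 7 of these averaged under 5, among them Cdh1, Pax8 and Cdh16, while Krt8 and Tjp1 were abundant. Of 18 proximal tubule symbols 10 had a row, and 3 of these averaged under 5, Lrp2, Aqp1 and Miox. The deposited genes include 0 with no read in any library. Whether symbols without a row were unexpressed or named otherwise was not tested.

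Upstream sequence is shown for Fbln5, the member called by the count test DESeq2 but not by edgeR, and for Loxl1, the member with the fewest reads. Of the 8 genes, 4 (Fbn1, Fbln2, Fbln5 and Loxl1) had a promoter window in the RefSeq table for the GRCr8 assembly. The stretches printed lie before the outermost start of each gene in that table, on the gene's strand. Capitals mark GC boxes (GGGCGG or its reverse complement CCGCCC).
Fbln5, chr6:126742848-126742956, minus strand: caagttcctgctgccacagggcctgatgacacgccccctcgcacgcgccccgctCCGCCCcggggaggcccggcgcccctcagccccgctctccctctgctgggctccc
Loxl1, chr8:67612225-67612474, minus strand: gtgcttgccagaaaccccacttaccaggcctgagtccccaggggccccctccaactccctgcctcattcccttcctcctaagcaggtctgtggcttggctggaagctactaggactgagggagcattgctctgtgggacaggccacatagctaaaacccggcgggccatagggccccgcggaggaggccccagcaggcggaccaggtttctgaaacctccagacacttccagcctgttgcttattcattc

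The Fbln5 stretch holds 1 GC box and is 77.1% G and C. In the 250 bases before the listed start, Fbln2 had 3 GC boxes, Fbln5 had 1, and Fbn1 and Loxl1 had 0, where 30.5% of 33469 windows of that length held at least 1. A TATA box, searched as TATAAA on both strands, was in none of the 4 windows and in 12.9% of all windows. The box searched as CCAAT was likewise in none of the 4, against 34.0% of all. An AP-1 site, searched as TGANTCA, was in none of the 4 either, against 6.34%. Such matches describe letters only, and some listed starts lie inside the gene's outermost span. The G and C content was 71.2% in the Fbn1 window, 64.0% in Fbln2, 63.2% in Fbln5 and 60.4% in Loxl1, against a median of 51.2% over all windows.

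The 8 genes differed widely in level and are ordered first by normalized reads per kilobase of deposited gene length, the only scale on which genes can be compared. Lox stood highest, at 6226 and 6097 in lv_nc and 5292 and 5052 in lv_Mettl3. Fbln5 followed at 1104 and 1332, and 720 and 656. Loxl2 lay at 298 and 487, and 295 and 310, and Fbln1 at 136 and 174, and 122 and 112. The ranges of these 4 genes did not overlap one another in any library. By the mean of all libraries, Lox lay at percentile 98.9 of all genes tested, Fbln5 at 90.2, Loxl2 at 72.3 and Fbln1 at 52.4.

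The remaining structural genes of the 8, Fbn1, Fbln2 and Eln, were far lower than the enzyme Lox. On the same per-length scale Fbn1 had 13.0 and 7.65 in lv_nc, Fbln2 had 11.6 and 15.0, and Eln had 3.54 and 12.3. These 3 genes overlapped in lv_nc. Fbln2 was above Eln in both lv_nc libraries, but the place of Fbn1 changed, so the full order there is not settled. In lv_Mettl3 the 3 genes did not overlap: Fbn1 had 19.2 and 22.7, Fbln2 had 4.43 and 3.60, and Eln had 0.886 and 0.864. Loxl1 was at 1.05 and 0.661 in lv_nc and at 2.28 and 0 in lv_Mettl3. Of the summed level of the 8 genes, Lox made up 75.0% to 82.1% in each library.

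**Figure D1:**
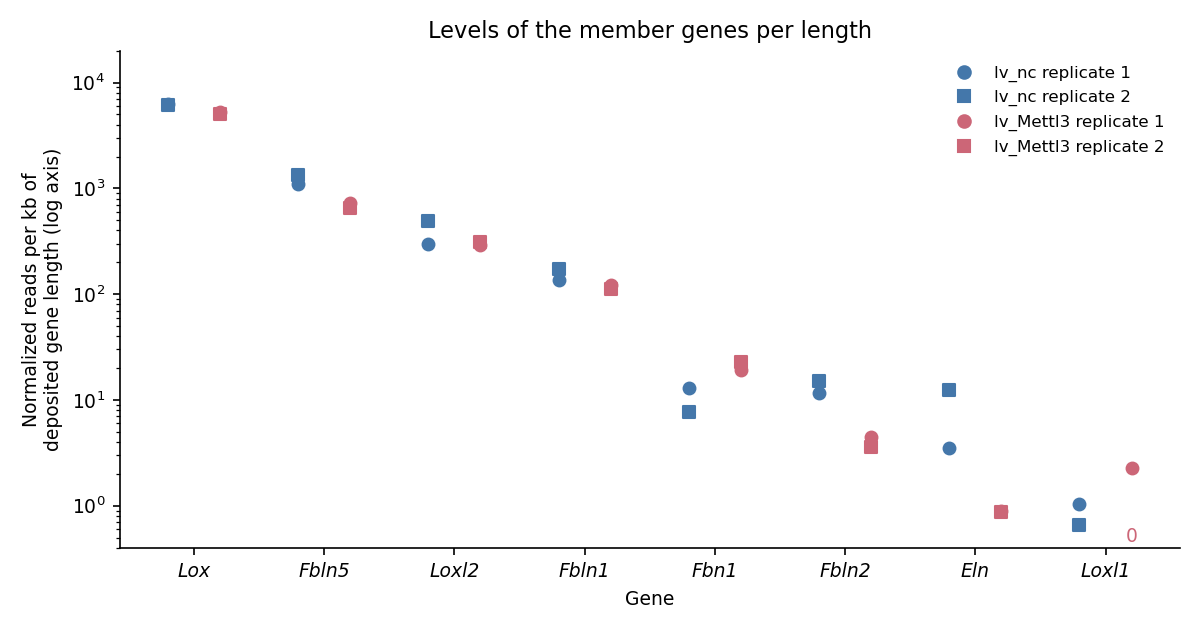
Normalized reads per kilobase of deposited gene length (log axis) for each gene in each of the 4 libraries, coloured by group, with a 0 printed where no read was counted. Lox lies at 5052 to 6226 in every library, and Fbn1, Fbln2 and Eln overlap in lv_nc but are apart in lv_Mettl3.

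Which of these genes differed between the groups was asked with limma on log2(value + 1) over the whole table, with Benjamini-Hochberg adjustment at 0.05. It called 0 of the 8, and 3 of 16391 genes tested (0.0183%). At an unadjusted p under 0.05 it had 5 of the 8, 4 lower and 1 higher in lv_Mettl3. Over all genes it had 1716 of the 16391 tested, 808 lower and 908 higher. On whole reads recovered from the values, edgeR called 0 of 7 and DESeq2 called 1 of 7, Fbln5, which was lower. DESeq2 called 318 of 12601 genes (2.52%) and 135 of them lower (1.07%). Both lv_Mettl3 libraries lay below both lv_nc libraries for 5 of the 8 genes, as for 21.5% of all genes tested, and above them for 1, as for 23.5%. With 2 libraries against 2, an exact permutation test of a single gene cannot go below a two-sided p of 0.333. The median limma log2 fold change was -0.37 over the 8 genes, 0.01 over all genes tested.

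**Figure D2:**
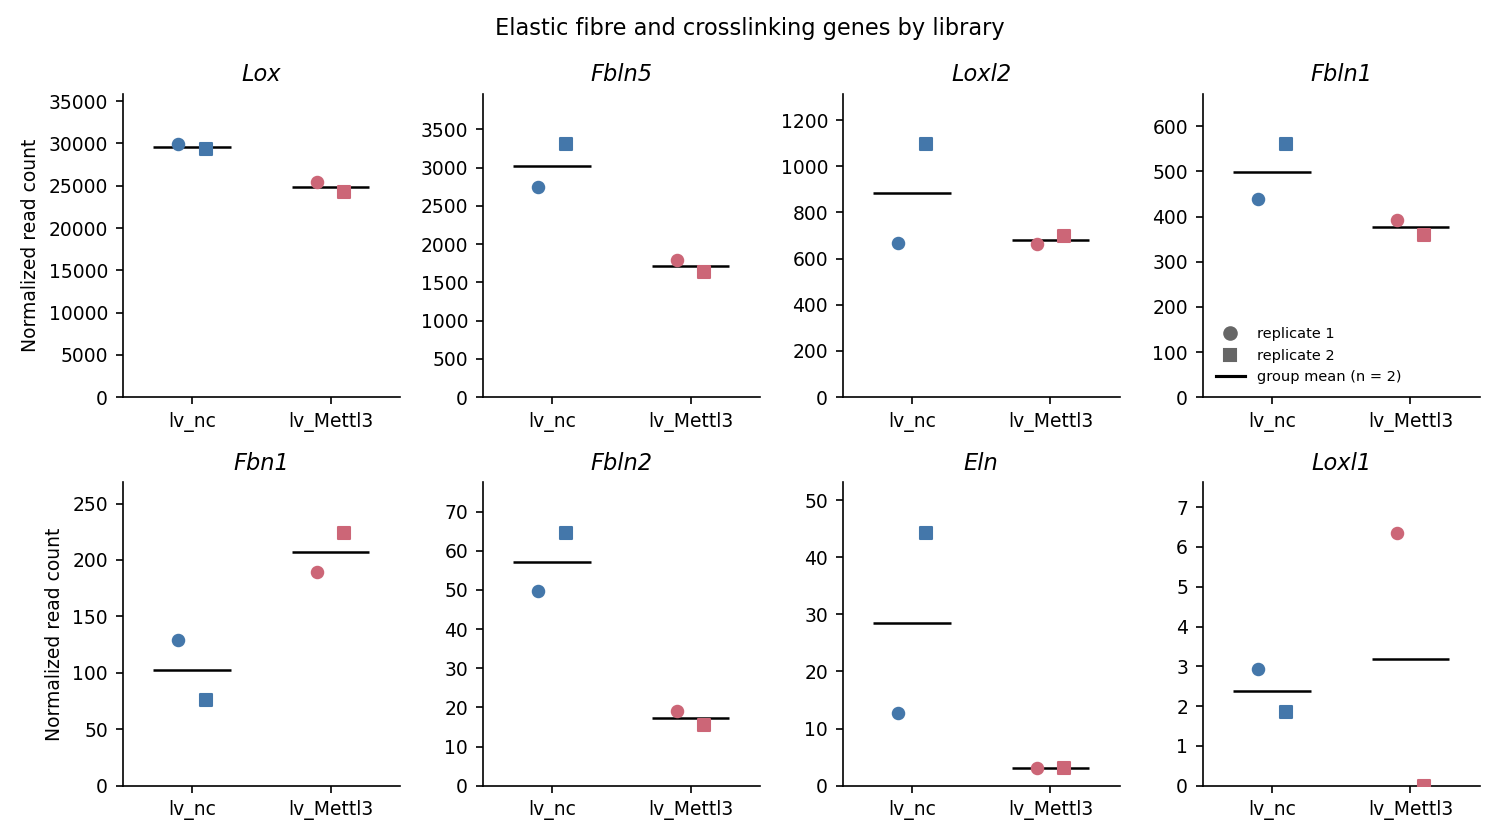
Normalized read count of each gene in each library, on a linear axis from 0 for each gene; circles and squares are replicates 1 and 2 and lines are group means (n = 2). Both lv_Mettl3 libraries lie below both lv_nc libraries for Lox, Fbln5, Fbln1, Fbln2 and Eln, and above them for Fbn1.

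Elastin itself was close to the limit of counting. Eln (ENSRNOG00000001469, chromosome 12, 24978483 to 25021863, positions here and for the other genes as the deposited table lists them, on a build that no source used here names) had 13 and 48 reads in lv_nc and 3 in each lv_Mettl3 library. As normalized read counts these were 12.7 and 44.3, and 3.18 and 3.10. The groups did not overlap, but the lv_nc libraries differed 3.49-fold from each other, and lv_nc replicate 2 held most of the reads. The ratio of lv_nc to lv_Mettl3 over the summed reads was 9.22, with an exact interval from counting of 4.00 to 26.1 (95%, conditional binomial, counting error only). The limma log2 fold change was -2.59 (SE 0.69, adjusted p = 0.418), and the DESeq2 adjusted p was 0.116. The limma value was -3.45 without lv_nc replicate 1 and -1.73 without lv_nc replicate 2.

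Fibrillin 1, the main protein of the microfibril, was the only one of the 8 genes with both lv_Mettl3 libraries above both lv_nc libraries. Fbn1 (ENSRNOG00000007302, chromosome 3, 117569697 to 117766120) had normalized read counts of 129 and 75.7 in lv_nc and 190 and 224 in lv_Mettl3. The means were 102 ± 37.7 and 207 ± 24.4 (SD, n = 2), a limma log2 fold change of 1.05 (SE 0.31, 95% interval 0.26 to 1.85, adjusted p = 0.452). DESeq2 gave 1.02 (SE 0.36, adjusted p = 0.122), so neither test called it. In DESeq2 its log2 fold change was 1.45 without lv_nc replicate 1 and 0.68 without lv_nc replicate 2. Fbn1 was lowest in lv_nc replicate 2, the library in which Eln was highest.

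The balance of fibrillin to fibulins can be read within a library, where scaling between libraries does not enter. Per length, Fbn1 stood to Fbln2 as 1.13 and 0.510 to 1 in lv_nc and as 4.33 and 6.30 to 1 in lv_Mettl3. Against Fbln5 it was 1.18% and 0.575% in lv_nc and 2.67% and 3.45% in lv_Mettl3. Because the groups were already apart upward for Fbn1 and downward for Fbln2 and Fbln5, these ratios had to separate too, and they are given as a description.

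Among 9204 genes with a symbol and a mean of at least 100, the 3 whose centred log2 values lay nearest to those of Fbn1 over the 4 libraries were Srf, Fzd5 and Map3k6. Srf encodes serum response factor, a transcription factor, Fzd5 a Wnt receptor and Map3k6 a kinase. Their Euclidean distances were 0.0482, 0.0917 and 0.176. Srf had normalized read counts of 1282 and 751 in lv_nc and 1819 and 2137 in lv_Mettl3, so like Fbn1 it was lowest in lv_nc replicate 2 and highest in lv_Mettl3 replicate 2. The likeness is a description over 4 libraries, and since it fixes the direction between the groups, no test of these genes is given.

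Of the 3 fibulins, DESeq2 called Fbln5. Fibulin 5 binds tropoelastin, integrins and Loxl1, and tethers elastin to cells. Fbln5 (ENSRNOG00000050539, chromosome 6, 125644804 to 125723944) had normalized read counts of 2741 and 3307 in lv_nc and 1788 and 1630 in lv_Mettl3. Every lv_Mettl3 library was below every lv_nc library, and the lowest lv_nc value was 1.53 times the highest lv_Mettl3 value. The mean was 1.77-fold lower, and the difference of the means, 1315, exceeded the gaps of 565 within lv_nc and 158 within lv_Mettl3.

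Fbln5 fell in DESeq2, with a log2 fold change of -0.82 (SE 0.16, adjusted p = 0.000107). Limma gave the same size (-0.82, SE 0.13, 95% interval -1.14 to -0.50) but did not call it (adjusted p = 0.320), nor did edgeR (adjusted p = 0.146). In the authors' deposited table its log2 fold change is -0.82 and its adjusted p 0.000107. These equal the DESeq2 values here, on the same reads, so they are not a second source for the call. The DESeq2 call remained without either lv_nc library and ended without either lv_Mettl3 library, each a fit with 1 library in a group. The log2 fold change was -0.96 without lv_nc replicate 1 and -0.69 without lv_nc replicate 2. It was -0.90 without lv_Mettl3 replicate 1 and -0.76 without lv_Mettl3 replicate 2. Compared with all 4 libraries, DESeq2 called a larger share of all genes without lv_nc replicate 1. The share was smaller without any other library.

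Fibulin 2, which binds fibrillin, elastin and basement membrane proteins, was measured at low counts. Fbln2 (ENSRNOG00000007338, chromosome 4, 122835436 to 122895121) had normalized read counts of 49.8 and 64.6 in lv_nc and 19.1 and 15.5 in lv_Mettl3, from 121 and 33 reads in all. The groups were apart, with the lowest lv_nc library 2.61 times the highest lv_Mettl3 library. The limma log2 fold change was -1.67 (SE 0.35, 95% interval -2.56 to -0.78, adjusted p = 0.378), and the DESeq2 adjusted p was 0.143. The means, 57.2 ± 10.5 and 17.3 ± 2.53 (SD, n = 2), differed 3.31-fold.

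Fibulin 1, which binds fibronectin and is found in elastic fibre cores, differed less. Fbln1 (ENSRNOG00000014137, chromosome 7, 126096793 to 126176468) had 439 and 560 in lv_nc against 392 and 360 in lv_Mettl3. The highest lv_Mettl3 library lay just under the lowest lv_nc library, which was 1.12 times as high. The limma log2 fold change was -0.40 (SE 0.17, 95% interval -0.83 to 0.03, adjusted p = 0.492; DESeq2 adjusted p = 0.568). The limma value was -0.58 without lv_nc replicate 1 and -0.22 without lv_nc replicate 2. Its difference of means, 124, was about the gap of 122 between the lv_nc libraries. Per length Fbln1 was 12.3% and 13.1% of Fbln5 in lv_nc and 16.9% and 17.0% in lv_Mettl3.

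Of the crosslinking enzymes, none was called with all 4 libraries. Lysyl oxidase is the founding member of the family and acts on elastin and fibrillar collagens. Lox (ENSRNOG00000014426, chromosome 18, 47500330 to 47577819) had normalized read counts of 29926 and 29308 in lv_nc and 25440 and 24286 in lv_Mettl3. The groups did not overlap, the lowest lv_nc library being 1.15 times the highest lv_Mettl3 library. The limma log2 fold change was -0.25 (SE 0.09, 95% interval -0.49 to -0.01, adjusted p = 0.471; DESeq2 adjusted p = 0.501). Its log2 fold change lay between -0.29 and -0.22 with any 1 library left out.

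The deposited span of Lox overlaps Znf474 on the other strand, which had normalized read counts of 53.5 to 110 in the 4 libraries. It also overlaps a small RNA gene with at most 3.69. The strand setting of the counting is not given in the sources used here, so reads in the shared stretch cannot be assigned by strand. No other of the 8 genes overlapped a gene of the table.

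Lysyl oxidase-like 2 crosslinks collagen IV and fibrillar collagens. Loxl2 (ENSRNOG00000016758, chromosome 15, 51303909 to 51365234) had 669 and 1096 in lv_nc against 663 and 697 in lv_Mettl3. The groups overlapped: lv_nc replicate 1 lay within the lv_Mettl3 range, and lv_nc replicate 2 was 1.64 times as high as lv_nc replicate 1. The limma log2 fold change was -0.33 (SE 0.25, 95% interval -0.96 to 0.30, adjusted p = 0.628). The limma value was 0.02 without lv_nc replicate 2 and -0.69 without lv_nc replicate 1. The direction therefore rested on lv_nc replicate 2.

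Lysyl oxidase-like 1 is the family member most specific to elastic fibres, and it was barely counted. Loxl1 (ENSRNOG00000008680, chromosome 8, 63067300 to 63092009) had 3 and 2 reads in lv_nc against 6 and 0 in lv_Mettl3. No difference was detectable at this depth: the ratio of lv_nc to lv_Mettl3 over the summed reads had a counting interval of 0.182 to 2.97 (95%), and DESeq2 gave no adjusted p.

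**Figure D3:**
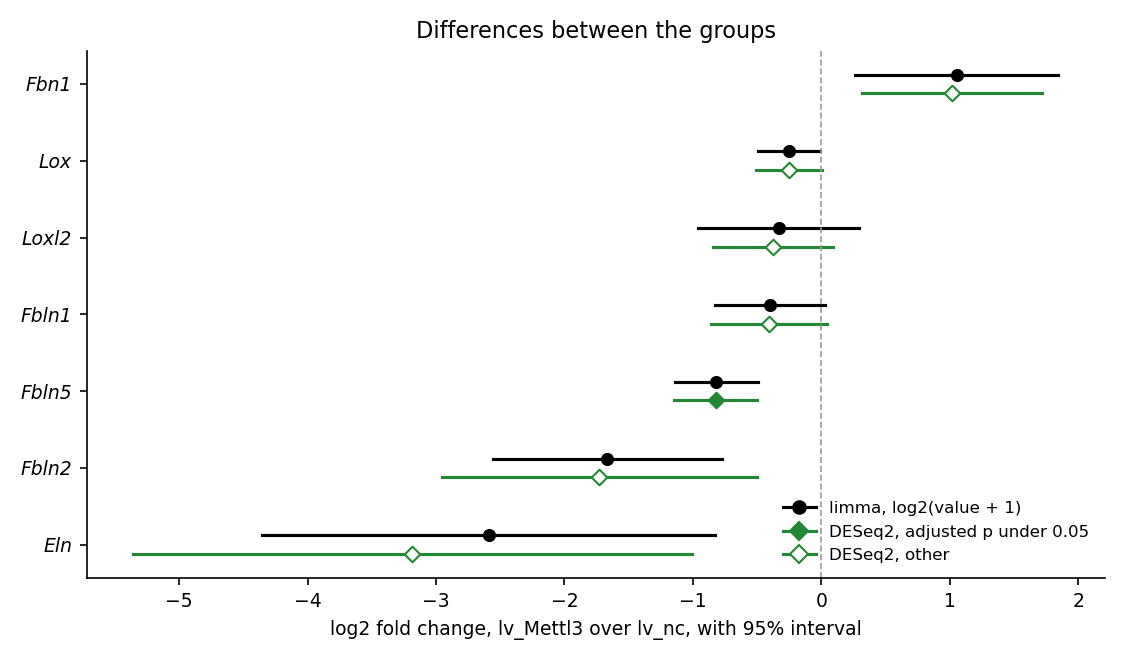
Log2 fold change of lv_Mettl3 over lv_nc with its 95% interval for 7 genes, from limma (black circles) and DESeq2 (green diamonds, filled where the adjusted p was under 0.05). Loxl1 is left out for want of reads. Only the Fbln5 diamond is filled, and the Eln interval is the widest.

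**Figure D4:**
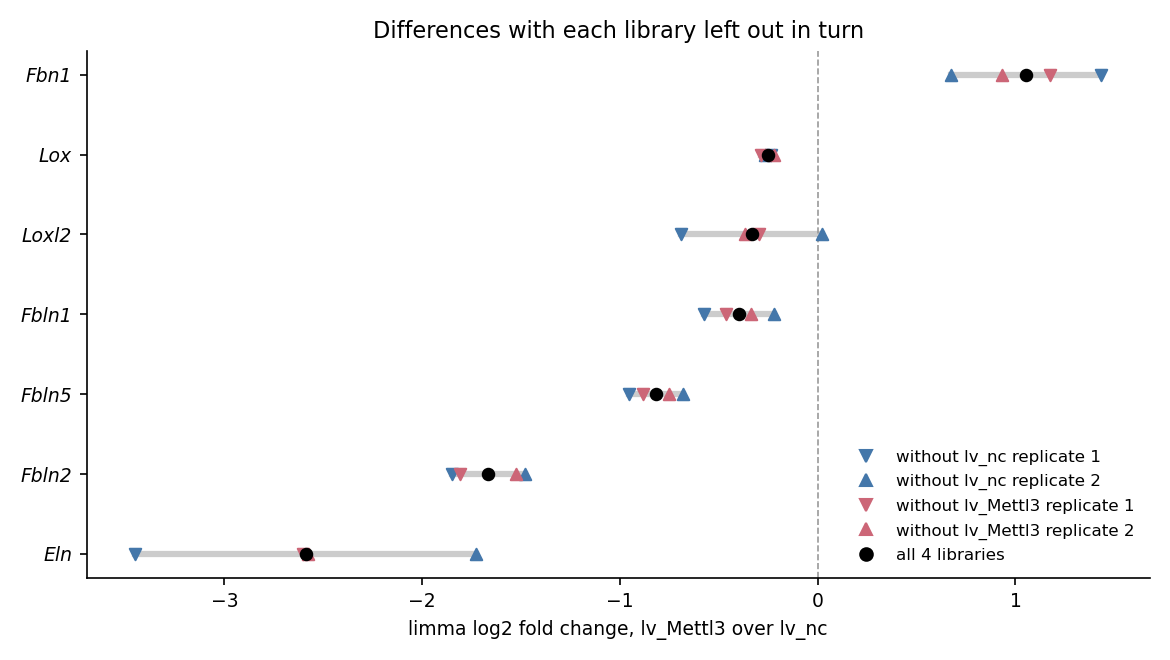
Limma log2 fold change of the same 7 genes with all 4 libraries (black circles) and with each library left out (triangles). Eln ranges from -3.45 to -1.73, Fbn1 from 0.67 to 1.43 and Loxl2 from -0.69 to 0.02, in each case between the settings without an lv_nc library, while Lox ranges from -0.29 to -0.22.

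Other genes of microfibrils and elastic fibres were read from a list of 30 symbols, of which 23 had a row and were tested by limma. Limma called 0 of the 23, and DESeq2 called 3 of 17 lower and 0 higher, where it called 1.07% of all genes lower. The median limma log2 fold change was -0.21. The 3 that fell in DESeq2 were Ltbp4, Bgn and Ltbp3. Ltbp4, a latent TGF-beta binding protein that works with fibulin 5 in elastin assembly, had 6574 and 8344 in lv_nc against 4939 and 4644 in lv_Mettl3 (DESeq2 log2 fold change -0.64, SE 0.16, adjusted p = 0.00621).

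Bgn encodes biglycan, a small proteoglycan that binds tropoelastin and microfibrils, and had the highest normalized read count of the list. It went from 18646 ± 3393 to 12365 ± 462 (SD, n = 2; DESeq2 adjusted p = 0.0134). Ltbp3, a relative of Ltbp4 that holds latent TGF-beta, went from 4619 ± 1147 to 3038 ± 56.0 (DESeq2 adjusted p = 0.0405). Without lv_nc replicate 2 DESeq2 called Bgn and Ltbp4 but not Ltbp3, and without either lv_Mettl3 library it called none of the 3. Itgb5, an integrin subunit with the next highest normalized read count, not corrected for length, had 7264 ± 480 and 7524 ± 435. Efemp2, fibulin 4, named after its values were seen, had 3112 ± 173 and 3167 ± 52.2, so its group means lay within the spread of lv_nc.

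Other crosslinking genes were called only with a library left out. Of 29 symbols 25 were tested, limma called 0 and DESeq2 0 of 23 with all 4 libraries, and the median limma log2 fold change was -0.12. At an unadjusted p under 0.05 limma had 2 higher and 2 lower. P4hb, a subunit of the prolyl hydroxylase of collagen, had 36891 ± 2065 in lv_nc and 39217 ± 491 in lv_Mettl3. Serpinh1, the collagen chaperone, had 24748 ± 1271 and 21579 ± 244. Without lv_nc replicate 1 DESeq2 called genes of this list, most of them lower in lv_Mettl3 and Loxl4 higher. That fit has 1 library in lv_nc and called a larger share of all genes than the fit with all 4 libraries.

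The remaining relatives of Lox were named after their values were seen. Loxl3 had 1575 and 1984 in lv_nc against 2380 and 2293 in lv_Mettl3, and Loxl4 had 1618 and 1319, and 1846 and 1821. In both genes the lv_Mettl3 libraries were above the lv_nc libraries, whereas in Lox they were below. The DESeq2 adjusted p was 0.313 for Loxl3 and 0.523 for Loxl4. With 1 library left out the calls differed: DESeq2 called Loxl3 without lv_nc replicate 2, and Loxl4 without lv_nc replicate 1.

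Enzymes that degrade elastin and their inhibitors were read from 20 symbols, 11 of them tested. Limma called 0, with a list median of -0.04. DESeq2 called 2 of 6 lower, Timp3 and Mmp14, and 0 higher, where it called 1.07% of all genes lower. Timp3, a matrix-bound metalloproteinase inhibitor, had 277 and 438 in lv_nc against 138 and 113 in lv_Mettl3 (DESeq2 log2 fold change -1.51, SE 0.31, adjusted p = 0.000210). Mmp14, a membrane metalloproteinase, had 4991 and 6176, and 3663 and 4090 (-0.53, SE 0.16, adjusted p = 0.0441). Without lv_nc replicate 2, or without either lv_Mettl3 library, DESeq2 called neither. The abundant Ctsl, a lysosomal protease, and Timp2, another inhibitor, had overlapping groups, at 17176 ± 2130 and 18720 ± 1172, and at 16281 ± 726 and 16016 ± 511.

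**Figure D5:**
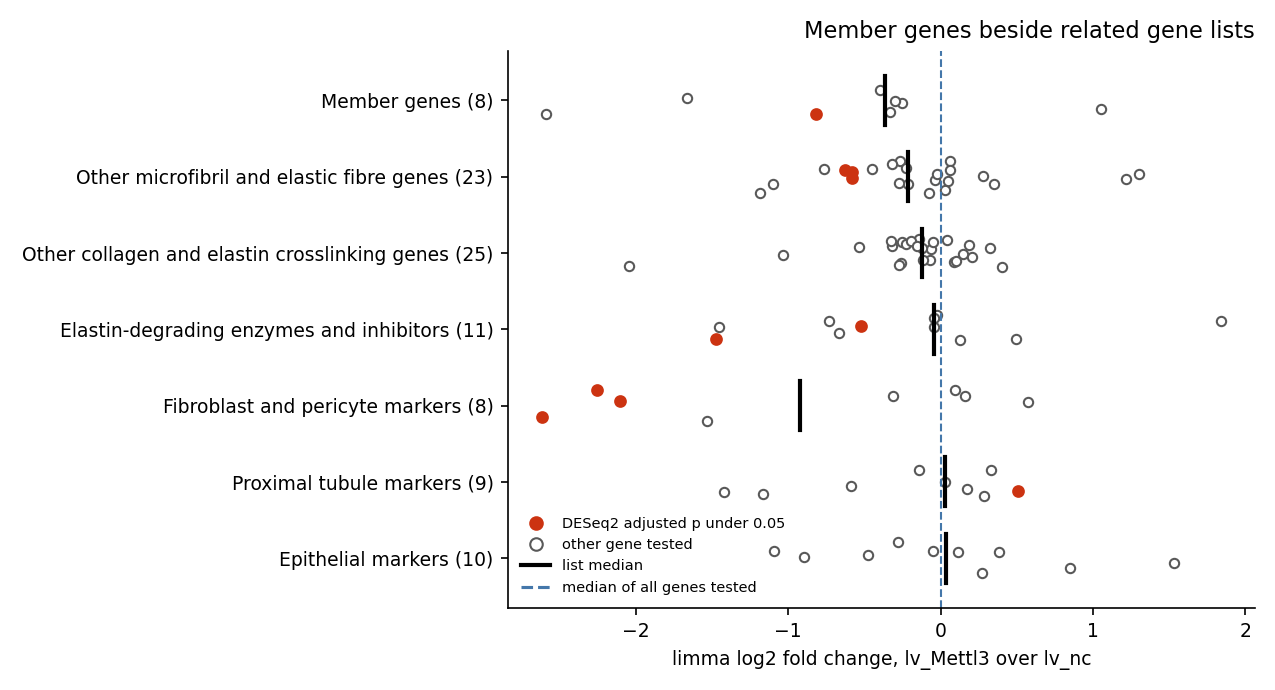
Limma log2 fold change of every gene tested in the member set and in 6 other lists, with the number tested in brackets; red points have a DESeq2 adjusted p under 0.05, black bars are list medians and the dashed line is the median of all genes tested. The red points among the first 5 rows all lie below 0, and the members' median is -0.37.

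Of the fibroblast and pericyte markers, 3 collagen genes fell in DESeq2 while the rest were not called. Of 16 fibroblast and pericyte symbols 8 had a row, and their summed normalized read counts were 8736 and 15969 in lv_nc and 3114 and 2633 in lv_Mettl3. The collagen genes Col1a1, Col1a2 and Col3a1 made up 90.7% of that sum over the 4 libraries and fell in DESeq2, with log2 fold changes of -2.72, -2.29 and -2.12. Of the 8 markers 5 had limma log2 fold changes below 0 and 3 above. Pdgfra and Meox1 had means under 5. S100a4 had 393 ± 13.1 in lv_nc and 440 ± 37.9 in lv_Mettl3, Cspg4 had 305 ± 112 and 237 ± 5.33, and Pdgfrl had 15.9 ± 10.1 and 15.7 ± 4.73 (SD, n = 2). The order of the libraries in this sum, with lv_nc replicate 2 highest and lv_Mettl3 replicate 2 lowest, was that of Fbln5, Fbln1 and Fbln2. Because the groups were already apart in that direction for each, only the order within a group was free. Eln was also highest in lv_nc replicate 2, but it had 3 reads in each lv_Mettl3 library, so its order there is not resolved. The share of all genes with this order was not counted. The part of such cells or of these collagen transcripts in the differences of these genes was not tested, and in bulk RNA fewer cells of a type and less RNA per cell cannot be told apart. Smooth muscle markers summed to 9187 and 6071 in lv_nc and 6801 and 6932 in lv_Mettl3, with Acta2 lower in DESeq2 (1139 ± 554 to 515 ± 38.2, SD, n = 2, adjusted p = 0.00406), a call that ended without lv_nc replicate 1. Of the proximal tubule markers DESeq2 called Ggt1 higher (2471 ± 83.6 to 3526 ± 328, SD, n = 2, adjusted p = 0.0345), and of the epithelial markers it called 0. Without either lv_Mettl3 library DESeq2 called Col3a1 alone of all the marker lists, and without lv_nc replicate 2 it no longer called Col1a2. Endothelial and leukocyte markers summed to at most 44.4 and 66.1 in any library.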

How the data were processed

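The authors deposited 1 table of 17768 genes; per the submitters' processing notes, CASAVA 1.4 and HISAT2 were used. No source used here names the counter, build, annotation or strand setting. Each library column is a signal deposited by the authors: reads per gene over a size factor of that library (1.02 and 1.08 in lv_nc, 0.943 and 0.968 in lv_Mettl3): within 0.001 reads, 100% of values were whole multiples of the smallest positive value, so whole reads were recovered. The deposited log2 fold changes, p-values and gene lengths are the authors' own.

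The main test was limma 3.58.1 (trend) on log2(value + 1), for genes reaching 1 in 2 or more libraries, two-sided. Its fold changes understate those of low genes. DESeq2 1.42.0 and edgeR 4.0.16 quasi-likelihood tests on recovered reads were alternatives. A gene is said to have risen or fallen where the test named called it. R was 4.3.3. Scripts were tested on simulated data. The members and lists, and the choice to describe DESeq2 calls, were made with earlier results of these data known. Symbols were matched exactly. Named beside the members are genes called by limma or DESeq2 in each list (up to 6), the 2 with the highest mean value, and the 3 genes most like the member with the largest change among those averaging 100 or more. Exact counting intervals use summed reads and size factors. Promoter letters are from RefSeq, GRCr8.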

Additional observations from a re-analysis of the deposited data

How the results depend on the processing

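Depth limits Eln, Fbln2 and Loxl1, and 2 libraries per group limit every test. Limma called 0 members under each limma alternative, and DESeq2 called 1. The limma count over all genes was 0 with a pseudocount of 0.1, 5 with at least 1 CPM in all 4 libraries, 24 with robust empirical Bayes and 0 to 0 without 1 library. It was 318 with DESeq2 and 5 with edgeR. Without 1 library DESeq2 called 56 to 1547 genes and 0 to 4 members. Both counts were highest without lv_nc replicate 1, a fit with 1 library in lv_nc. The members called there were Fbln5, Fbn1, Lox and Loxl2. The log2 fold changes of Eln, Fbn1, Fbln1, Fbln2, Fbln5 and Lox kept their sign in every alternative that gave a value. Eln, Fbln2 and Loxl1 were not tested with at least 1 CPM in all 4 libraries. That of Loxl2 turned in limma (-0.69 to 0.0217) and in DESeq2 (-0.69 to 0.0173) without 1 library. That of Loxl1, from -0.30 in limma, was 0.0475 with a pseudocount of 10, 0.41 with DESeq2 and -1.74 to 1.14 without 1 library. In DESeq2 it was -1.06 with a replicate block and -3.66 to 1.41 without 1 library. The causes were not tested. Same-numbered libraries deviated together over genes (correlation 0.33), but share only a number. With a replicate block limma called 3 genes and 0 members and DESeq2 called 272 genes and 1 member, Fbln5. Scaling by TMM or library size moved the median of all genes to 0.01 and -0.03. Alternatives of DESeq2 other than the test itself were chosen after the data were seen.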
